A study of Mus musculus with 16 samples.

Results

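A set of 10 transcription factor genes was followed in cultured mouse lung fibroblasts: the SNAIL family genes Snai1 and Snai2, the TWIST family genes Twist1 and Twist2, the ZEB family genes Zeb1 and Zeb2, and the skeletal regulators Scx, Sox9, Runx1 and Runx2. They were chosen as a list by name, with earlier results of these data known. Their probes are those whose transcript accession maps to the symbol. All 10 genes were found, on 18 of the 56605 probes of the array, and all 10 were among the 15394 genes tested. In the study, primary lung fibroblasts were isolated by enzymatic digestion from female 8-week-old mice that were either wild type C57BL/6J or knockout for Meflin, a surface and secreted protein of mesenchymal cells that the gene Islr encodes. Cells of each genotype received recombinant TGF-β1 at 5 ng/mL or vehicle for 48 h, which gave 4 groups of 4 one-colour arrays. The design text describes 4 independent experiments per group, but no label ties an array to a mouse, so p-values measure the spread between these arrays. What the Meflin allele removes, and whether the knockout mice were bred onto the same background, is not given in the sources used here.

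SNAIL, TWIST and ZEB proteins are DNA-binding regulators that act at E-box sequences and are known for switching off epithelial genes such as E-cadherin during epithelial to mesenchymal transition. Fibroblasts are already mesenchymal and express many of these factors at rest. SCX (scleraxis) is the basic helix-loop-helix factor of tendon progenitors, SOX9 the HMG-box factor of cartilage, RUNX2 the Runt-domain factor of bone, and RUNX1 its relative in blood and mesenchyme. TGF-β1 acts through receptor kinases and SMAD proteins and is the standard stimulus that turns cultured fibroblasts into contractile, matrix-producing myofibroblasts.

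The sequences just upstream of 4 of these genes are shown because they hold the letters that the factors themselves, or SMAD proteins, are known to recognise. Each is the 250 bases before the annotated start in RefSeq (GRCm38.p6), read 5′ to 3′ on the gene's strand. RefSeq windows were matched for 6 of the 10 genes, 10 windows in all. Capitals mark a match on either strand to any of 3 motifs. The first is the E-box, spelled CANNTG, whose form CACCTG is the one preferred by SNAIL and ZEB proteins, so that a match to this form is also a match to the general E-box. The second holds the letters bound by RUNX proteins, spelled TGTGGT. The last is the box bound by SMAD proteins in TGF-β targets, spelled CAGACA and called the CAGA box below.
Snai1, chr2:167537945-167538194, + strand: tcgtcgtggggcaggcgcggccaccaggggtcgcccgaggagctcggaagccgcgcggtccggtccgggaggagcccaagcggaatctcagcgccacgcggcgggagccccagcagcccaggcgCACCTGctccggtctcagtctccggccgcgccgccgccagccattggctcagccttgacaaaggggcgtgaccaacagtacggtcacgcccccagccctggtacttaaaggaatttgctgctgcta
Twist1, chr12:33957421-33957670, + strand: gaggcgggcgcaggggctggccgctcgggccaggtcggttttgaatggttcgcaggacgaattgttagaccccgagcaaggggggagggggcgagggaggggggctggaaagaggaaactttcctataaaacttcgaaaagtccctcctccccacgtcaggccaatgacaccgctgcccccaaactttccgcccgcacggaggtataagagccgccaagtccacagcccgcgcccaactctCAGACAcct
Runx1, distal start, chr16:92826075-92826324, - strand: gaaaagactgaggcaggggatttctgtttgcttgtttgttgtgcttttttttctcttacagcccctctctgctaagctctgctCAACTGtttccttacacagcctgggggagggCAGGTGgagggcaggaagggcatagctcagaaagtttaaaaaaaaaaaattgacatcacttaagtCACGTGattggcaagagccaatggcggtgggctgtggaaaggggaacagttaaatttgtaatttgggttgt
Runx2, chr17:44814628-44814877, - strand: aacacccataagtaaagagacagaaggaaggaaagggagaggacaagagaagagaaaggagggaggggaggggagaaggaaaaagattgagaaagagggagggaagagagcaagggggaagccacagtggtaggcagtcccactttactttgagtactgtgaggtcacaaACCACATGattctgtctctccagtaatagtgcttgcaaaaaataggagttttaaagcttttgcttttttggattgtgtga
Snai1 carries 1 E-box, of the SNAIL and ZEB type. Twist1 carries 1 CAGA box and no E-box. The distal Runx1 window carries 3 E-boxes, 1 of them of the SNAIL and ZEB type. In the Runx2 window the RUNX match and the E-box share letters in one capital run. The windows of Twist2 and Zeb2 and the proximal start of Runx1 hold none of these letters. Over all 32817 RefSeq windows of this length, 66.2% hold an E-box, 17.2% the SNAIL and ZEB form, 14% the RUNX letters and 17.1% the CAGA box, so each of these matches is common. No binding was measured, and a match is a description of letters only.

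Signals are log2 of the scanner's background-corrected intensity, shifted so that every array has the same 75th percentile. Before that shift the percentile lay at 486 to 526 intensity units with wild type vehicle, 429 to 452 with wild type TGF-β1, 470 to 519 with knockout vehicle and 382 to 446 with knockout TGF-β1. Within groups no pair of arrays correlated below 0.9959, and the number of arrays limits the precision. The arrays lay on 2 slides, each with 2 arrays of every group. As a check of the labels, Islr was at 10.82 ± 0.062 (SD, n = 4) with wild type vehicle and 8.34 ± 0.081 with TGF-β1, and was not well above background on any knockout array. Against the dimmest probes well above background, the knockout level was lower by at least 138-fold with vehicle and by at least 19.7-fold under TGF-β1. Acta2, the actin of myofibroblasts, rose by 2.19 in wild type and 2.63 in knockout cells on the log2 scale. All 8 fibroblast markers listed were well above background on every array. So were all 9 macrophage and leukocyte markers, whose summed signal was 144600 to 166900 with wild type vehicle, 78370 to 84280 with wild type TGF-β1, 120900 to 123500 with knockout vehicle and 57810 to 63360 with knockout TGF-β1. The 6 endothelial markers summed to 3887 to 4186, 1617 to 1673, 3392 to 3569 and 887.4 to 992.2 in the same order, and the 4 mesothelial markers to 22100 to 23320, 19390 to 20390, 19400 to 20340 and 9917 to 11360. Among 7 epithelial markers Epcam and Nkx2-1 were not well above background, and of 5 cartilage markers Matn1 and Hapln1 were not. The other 5 epithelial markers were well above it on all arrays of both vehicle groups, but only 3 were in each TGF-β1 group. Of the other 3 cartilage markers 2 were in each group. These 3 summed to 3219 to 3775, 3950 to 4443, 3229 to 3966 and 1978 to 2288 in the same order. The sum over the 5 pericyte and smooth muscle markers was higher with TGF-β1, from 9678 to 10350 up to 12220 to 13200 in wild type and from 10190 to 11220 up to 13510 to 14660 in knockout cells. Its members did not move together. Myh11, smooth muscle myosin, rose by 2.19 in wild type and 3.63 in knockout cells, while Notch3 fell by 0.40 and 1.33. Cspg4 and Rgs5 read -0.06 and -0.59 in wild type cells, neither called, and rose by 3.05 and 1.27 in knockout cells, where normexp gave 0.48 for Rgs5. Rgs5 was dim, well above background on 3 wild type vehicle arrays and on 0 wild type TGF-β1 arrays. The part of these other cell types in the results that follow was not tested, and in bulk cultures fewer cells of a type and less RNA per cell cannot be told apart.

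All 10 genes were well above background on all 16 arrays. Each result was also computed under 17 alternatives (25 for the interaction): quantile normalization, which gives all arrays one distribution, normexp, which models the background, 2 filters, the mean of a gene's probes, blocks, each slide alone and each array left out. In wild type cells TGF-β1 raised Twist1, Zeb1 and Runx2, lowered Snai2, Zeb2, Scx and Sox9, and left Snai1, Twist2 and Runx1 short of the threshold (limma, Benjamini-Hochberg adjusted p under 0.05 over all genes). Sox9 was the 1 gene that moved at least 2-fold, as 9.71% of all genes did. So 7 of 10 were called, where 68.6% of all genes were, 41.3% upward and 27.3% downward. In knockout cells TGF-β1 raised 7 of the 10, lowered Snai2, Zeb2 and Sox9, and moved 1 gene, Runx1, by over 2-fold. Of all genes 82.6% were called there, 46.6% upward and 35.9% downward, and 23.1% moved at least 2-fold, so a call in itself sets these genes little apart. The median difference of the 10 was -0.01 in wild type cells against 0.08 over all genes, and 0.45 in knockout cells against 0.10 over all genes. Both comparisons are of treated against vehicle arrays of their own genotype and share no array.

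**Figure D1:**
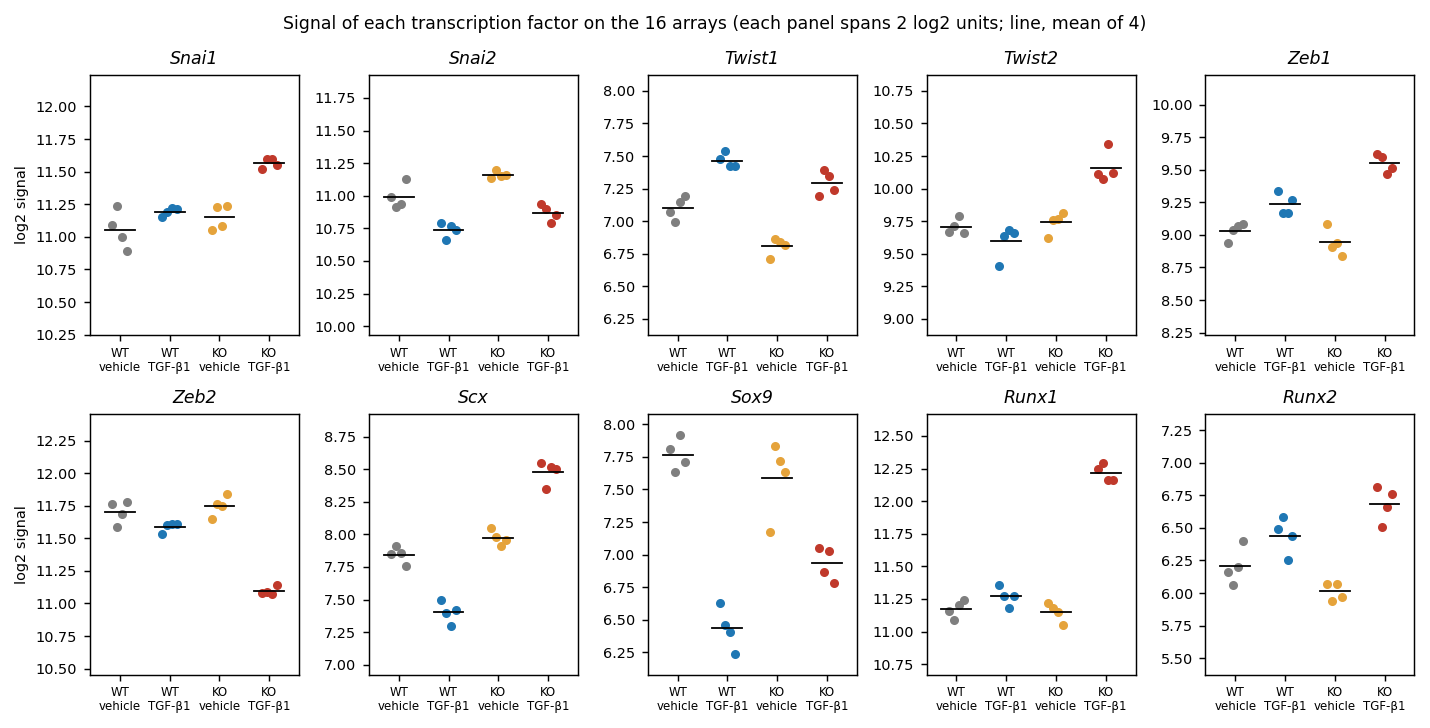
Log2 signal of each of the 10 genes (y axis, 2 log2 units in every panel) on each of the 16 arrays, by group (x axis; WT wild type, KO Meflin knockout); points are arrays and lines the mean of 4. Runx1 stands apart only in knockout cells with TGF-β1, at 12.16 to 12.29, and Scx lies lowest with wild type TGF-β1 and highest with knockout TGF-β1.

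The difference between the 2 responses was tested directly as an interaction, the TGF-β1 effect in knockout cells minus that in wild type cells. It was positive for Snai1, Twist2, Zeb1, Scx, Sox9, Runx1 and Runx2, negative for Zeb2, and not called for Snai2 and Twist1. That is 8 of 10, where 58.3% of all genes were called, 31.9% positive and 26.5% negative. The median interaction of the 10 was 0.42 against 0.05 over all genes, and the median size was 0.49 against 0.29. None reached a 2-fold interaction, as 9.96% of all genes did. Runx1 (0.97) and Scx (0.95) had larger interactions than 89.3% and 89.0% of all genes tested.

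**Figure D2:**
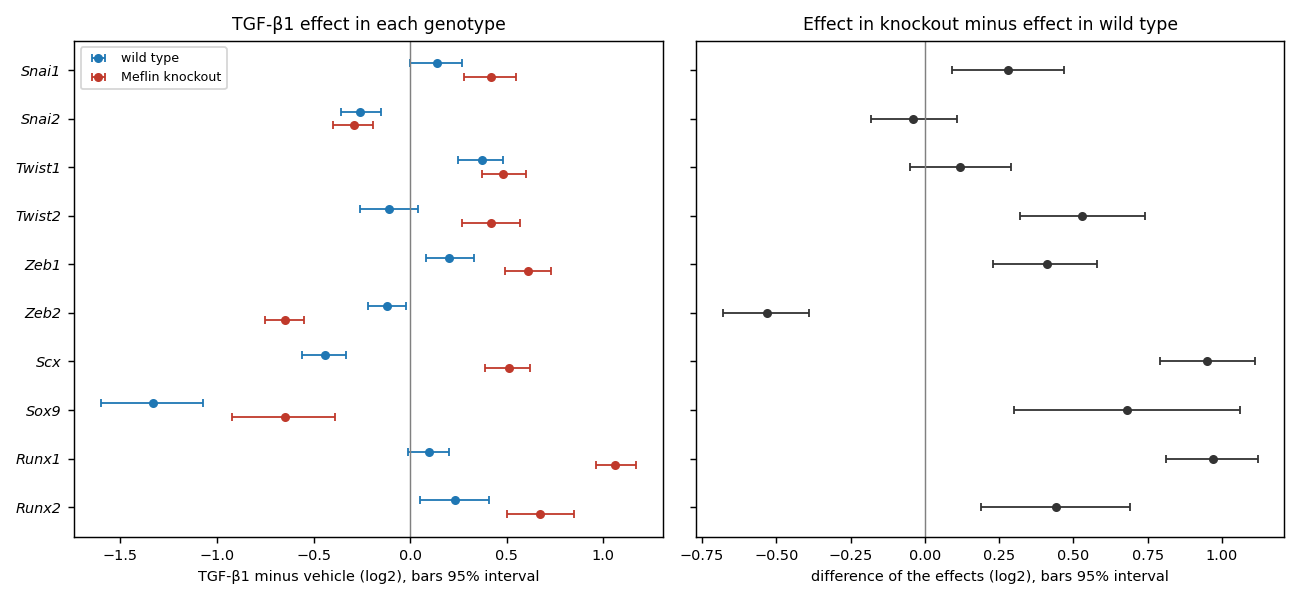
Left, the TGF-β1 effect on each gene (x axis, TGF-β1 minus vehicle, log2) in wild type (blue) and Meflin knockout (red) cells; right, the effect in knockout minus that in wild type cells. Points are estimates and bars 95% intervals. Scx falls by 0.44 in wild type and rises by 0.51 in knockout cells, and the interaction intervals of Snai2 and Twist1 include 0.

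Of the 10 genes Runx1 had the largest rise in knockout cells. Its log2 signal was 11.16, 11.09, 11.20 and 11.24 on the wild type vehicle arrays and 11.36, 11.27, 11.18 and 11.27 with TGF-β1. On knockout arrays it was 11.22, 11.18, 11.15 and 11.05 with vehicle and 12.25, 12.29, 12.16 and 12.16 with TGF-β1. The first 3 groups overlap and the knockout TGF-β1 arrays lie apart from all of them. The rise in knockout cells was 1.06 ± 0.05 (SE), or 2.09-fold (limma adjusted p = 2.47e-11), against 0.10 ± 0.05 in wild type cells (adjusted p = 0.0972), and the interaction was 0.97 ± 0.071 (adjusted p = 2.84e-08). With TGF-β1 the knockout arrays were 0.95 above wild type (adjusted p = 2.92e-10). With vehicle the difference between genotypes was -0.02, with a 95% interval of -0.13 to 0.09. The call in wild type cells depends on the probe, since the other 2 Runx1 probes rose by 0.85 (adjusted p = 3.52e-09) and 0.26 (adjusted p = 0.0141) there. The same probes rose by 2.15 and 1.36 in knockout cells, and their interactions were 1.30 and 1.1. On the probe used, the interaction was 0.87 within slide 1 and 1.06 within slide 2. Without wild type TGF-β1 array 3 the wild type rise was called at 0.13 (adjusted p = 0.0429). It was 0.19 within slide 1 and 0.00 within slide 2, and over 17 alternatives it was called in 3, with adjusted p up to 0.981.

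Runx2, the bone regulator, rose in both genotypes. Its signal was 6.16, 6.06, 6.20 and 6.4 with wild type vehicle, 6.49, 6.58, 6.25 and 6.44 with wild type TGF-β1, 6.07, 5.94, 6.07 and 5.97 with knockout vehicle and 6.81, 6.51, 6.66 and 6.76 with knockout TGF-β1. The wild type groups overlap and the knockout groups do not. The rise was 0.23 ± 0.083 in wild type (adjusted p = 0.0229) and 0.67 ± 0.083, 1.6-fold, in knockout cells (adjusted p = 2.20e-06), with an interaction of 0.44 ± 0.12 (adjusted p = 0.00487). The wild type call was lost without vehicle array 1 or 2 or TGF-β1 array 1 or 2, with differences of 0.22, 0.18, 0.22 and 0.19 and adjusted p from 0.0538 to 0.0774. It was 0.42 within slide 1 and 0.04 within slide 2, and 11 of 17 alternatives called it, with adjusted p up to 0.732. With TGF-β1 the knockout was 0.25 higher (adjusted p = 0.0155), although the arrays overlap, and this call was lost without wild type TGF-β1 array 3 (0.19) or knockout TGF-β1 array 1 (0.21). It was 0.13 within slide 1 and 0.37 within slide 2, and the interaction was 0.23 and 0.65 there. Adjusted p over the alternatives of these 2 results reached 0.351 and 0.283. The probe used is annotated to a non-coding Runx2 transcript, and the other Runx2 probes to a coding one. The dimmer Runx2 probe rose by 0.35 and 0.85, with an interaction of 0.50 (adjusted p = 0.0522). Another Runx2 probe was well above background on 0 of 16 arrays.

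Scx, the tendon regulator, moved in opposite directions. Its signal was 7.85, 7.91, 7.86 and 7.76 with wild type vehicle and 7.5, 7.40, 7.30 and 7.42 with wild type TGF-β1. In knockout cells it was 8.05, 7.98, 7.91 and 7.96 with vehicle and 8.55, 8.35, 8.52 and 8.50 with TGF-β1. Every treated wild type array lies below, and every treated knockout array above, all vehicle arrays of either genotype. Scx fell by 0.44 ± 0.053 in wild type cells, 1.36-fold (adjusted p = 3.11e-06), and rose by 0.51 ± 0.053 in knockout cells, 1.42-fold (adjusted p = 3.54e-07). The interaction was 0.95 ± 0.075 (adjusted p = 6.59e-08). With TGF-β1 the knockout level was 1.08 ± 0.053 higher, or 2.11-fold (adjusted p = 1.36e-10), more than the difference of 90.9% of all genes. With vehicle the 2 genotypes overlapped, at a difference of 0.13 (adjusted p = 0.135). The fall and the rise were each called in 17 of 17 alternatives, at -0.47 to -0.32 and 0.43 to 0.58. The interaction was 0.86 within slide 1 and 1.03 within slide 2.

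Sox9, the cartilage regulator, fell in both genotypes, and fell less in the knockout. Its signal was 7.81, 7.63, 7.92 and 7.71 with wild type vehicle and 6.63, 6.46, 6.41 and 6.24 with wild type TGF-β1. In knockout cells it was 7.17, 7.83, 7.72 and 7.63 with vehicle and 7.05, 6.87, 7.03 and 6.78 with TGF-β1. The treated arrays lie below the vehicle arrays in both genotypes, and knockout vehicle array 1, at 7.17, lies closer to the treated knockout arrays than the other 3 do. The fall was 1.33 ± 0.12 on the log2 scale in wild type cells, 2.52-fold (adjusted p = 2.09e-07), larger than the change of 94.2% of all genes. In knockout cells Sox9 fell by 0.65 ± 0.12, 1.57-fold (adjusted p = 0.000185), and the interaction was 0.68 ± 0.18 (adjusted p = 0.00408). With TGF-β1 the knockout level was 0.50 above wild type (adjusted p = 0.00245). A second, dimmer probe gave falls of 1.14 and 0.62 and an interaction of 0.52 (adjusted p = 0.0357). Within slide 1 the knockout fall was 0.54 on the log2 scale (adjusted p = 0.0526), the interaction 0.64 (adjusted p = 0.135) and the knockout excess with TGF-β1 0.42 (adjusted p = 0.134). Within slide 2 they were -0.77, 0.72 and 0.58, all called. These 3 adjusted p were the largest over the 17, 25 and 17 alternatives of each result.

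Of the SNAIL family, Snai1 and Snai2 moved apart. Snai1, a repressor that TGF-β signalling is known to induce, was at 11.09, 11.24, 11 and 10.89 with wild type vehicle, 11.15, 11.19, 11.22 and 11.21 with wild type TGF-β1, 11.05, 11.23, 11.08 and 11.24 with knockout vehicle and 11.52, 11.60, 11.60 and 11.55 with knockout TGF-β1. Only the last group stands apart from the others. The rise was 0.42 ± 0.063 in knockout cells, 1.33-fold (adjusted p = 2.01e-05), and 0.14 ± 0.063 in wild type cells (adjusted p = 0.0699), with an interaction of 0.28 ± 0.09 (adjusted p = 0.0145). Vehicle array 2 of the wild type decided the wild type call, since without it the rise was 0.20 (adjusted p = 0.00577). Within slides 1 and 2 that rise was 0.01 and 0.26, and adjusted p reached 0.953 over its 17 alternatives, of which 2 called it. The interaction was lost with quantile normalization (0.16, adjusted p = 0.179) and within slide 2 (0.15, adjusted p = 0.24), the largest adjusted p of its 25 alternatives. The knockout excess with TGF-β1 was 0.38 (adjusted p = 8.21e-05).

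Snai2, also known as Slug, was at 10.99, 10.91, 10.94 and 11.13 with wild type vehicle and 10.79, 10.66, 10.77 and 10.74 with wild type TGF-β1. In knockout cells it was at 11.14, 11.20, 11.15 and 11.16 with vehicle and 10.94, 10.90, 10.79 and 10.85 with TGF-β1. The treated arrays lie below the vehicle arrays in each genotype. Snai2 fell by 0.26 ± 0.048 in wild type (adjusted p = 0.000247) and by 0.29 ± 0.048 in knockout cells (adjusted p = 4.68e-05), and the interaction of -0.04 had a 95% interval of -0.18 to 0.11. The knockout level was 0.17 higher with vehicle (adjusted p = 0.0337) and 0.13 higher with TGF-β1 (adjusted p = 0.0248). Neither genotype difference held under every alternative. The vehicle call was lost without wild type vehicle array 1, 2 or 3 or knockout vehicle array 2, 3 or 4, at 0.14 to 0.17 with adjusted p from 0.0653 to 0.094, and 7 of 17 alternatives called it, with adjusted p up to 0.376. The call with TGF-β1 was lost without wild type array 2 (0.11) or knockout array 1 (0.11) or 2 (0.12). With quantile normalization that difference was 0.01 (adjusted p = 0.82, the largest of 17 alternatives, 11 of which called it).

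Twist1, a basic helix-loop-helix factor, rose in both genotypes from a lower start in the knockout. Its signal was 7.07, 6.99, 7.15 and 7.19 with wild type vehicle, 7.48, 7.54, 7.42 and 7.42 with wild type TGF-β1, 6.71, 6.86, 6.84 and 6.82 with knockout vehicle and 7.19, 7.39, 7.35 and 7.24 with knockout TGF-β1. The knockout arrays lie below the wild type arrays under each treatment. The rise was 0.37 ± 0.055 in wild type (adjusted p = 3.11e-05) and 0.48 ± 0.055 in knockout cells (adjusted p = 8.67e-07), and the interaction of 0.12 had an interval of -0.05 to 0.29. The knockout level was 0.29 ± 0.055 lower on the log2 scale with vehicle, 1.22-fold (adjusted p = 0.00276), a difference larger than that of 90.3% of all genes. Within slide 1 it was -0.25 (adjusted p = 0.231, the largest of 17 alternatives) and within slide 2 it was -0.34. With TGF-β1 it was 0.17 lower (adjusted p = 0.0113), but -0.09 with quantile normalization (adjusted p = 0.202) and -0.08 with normexp background correction. Within slides 1 and 2 this difference was -0.22 and -0.13, with neither called, and 13 of its 17 alternatives called it, with adjusted p up to 0.202.

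Twist2, its close relative, behaved differently. It was at 9.67, 9.71, 9.79 and 9.66 with wild type vehicle, 9.41, 9.64, 9.68 and 9.66 with wild type TGF-β1, 9.62, 9.76, 9.77 and 9.81 with knockout vehicle and 10.11, 10.07, 10.34 and 10.12 with knockout TGF-β1. The knockout TGF-β1 arrays lie above all the others, which overlap. The difference was -0.11 ± 0.07 in wild type cells (adjusted p = 0.17) and 0.42 ± 0.07, 1.34-fold, in knockout cells (adjusted p = 4.78e-05). The interaction was 0.53 ± 0.098 (adjusted p = 0.000304). Under TGF-β1 the knockout level was 0.56 higher, 1.48-fold (adjusted p = 3.66e-06). Wild type TGF-β1 array 1, at 9.41, stands below the other 3 of its group, and without it the wild type difference was -0.05 and the interaction 0.47 (adjusted p = 0.000374, against at most 0.0156 over the 25 alternatives).

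The ZEB genes encode paired zinc-finger and homeodomain repressors, and they moved in opposite directions. Zeb1 was at 8.94, 9.04, 9.07 and 9.08 with wild type vehicle, 9.34, 9.17, 9.17 and 9.27 with wild type TGF-β1, 9.08, 8.91, 8.94 and 8.84 with knockout vehicle and 9.62, 9.60, 9.47 and 9.51 with knockout TGF-β1. Treated arrays lie above vehicle arrays in both genotypes, and the treated knockout arrays lie highest. Zeb1 rose by 0.20 ± 0.058 in wild type (adjusted p = 0.00584) and by 0.61 ± 0.058, 1.53-fold, in knockout cells (adjusted p = 1e-07), with an interaction of 0.41 ± 0.082 (adjusted p = 0.000584). Between treated groups the knockout was 0.31 higher (adjusted p = 0.000192). The second Zeb1 probe rose by 0.28 (adjusted p = 0.0685) and 0.48 (adjusted p = 0.00338), and its interaction of 0.19 (adjusted p = 0.401) and its genotype difference with TGF-β1 of 0.21 (adjusted p = 0.163) were not called. Within slide 2 the wild type rise was 0.14 (adjusted p = 0.0695) and within slide 1 the interaction was 0.35 (adjusted p = 0.0687), the largest adjusted p of the 17 and 25 alternatives of these results.

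Zeb2 was at 11.76, 11.59, 11.69 and 11.78 with wild type vehicle and 11.53, 11.60, 11.61 and 11.61 with wild type TGF-β1. In knockout cells it was at 11.65, 11.76, 11.75 and 11.84 with vehicle and 11.08, 11.09, 11.07 and 11.14 with TGF-β1. The knockout TGF-β1 arrays lie below all others, and the wild type groups overlap. Zeb2 fell by 0.65 ± 0.047, 1.57-fold, in knockout cells (adjusted p = 3.94e-09), and the interaction was -0.53 ± 0.067 (adjusted p = 7.44e-06). Among treated arrays the knockout was 0.49 lower on the log2 scale (adjusted p = 2.41e-07). The wild type fall of 0.12 ± 0.047 (adjusted p = 0.036) was lost without wild type vehicle array 1 (-0.10) or 4 (-0.09) and without TGF-β1 array 1 (-0.10) or 2 (-0.12), with adjusted p from 0.0554 to 0.11. It turned to 0.11 with normexp background correction (adjusted p = 0.0549), and 9 of 17 alternatives called it, with adjusted p up to 0.256. A second Zeb2 probe also read 0.11 in wild type cells (adjusted p = 0.0699), and the last one -0.31 (adjusted p = 0.0301). In knockout cells these probes fell by 0.40 and 1.11, and their interactions were -0.51 and -0.80. Macrophages are known to express Zeb2, and 8 of 9 macrophage markers fell with TGF-β1 in each genotype, with the sums given above. Their part in the fall of Zeb2 was not tested.

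**Figure D3:**
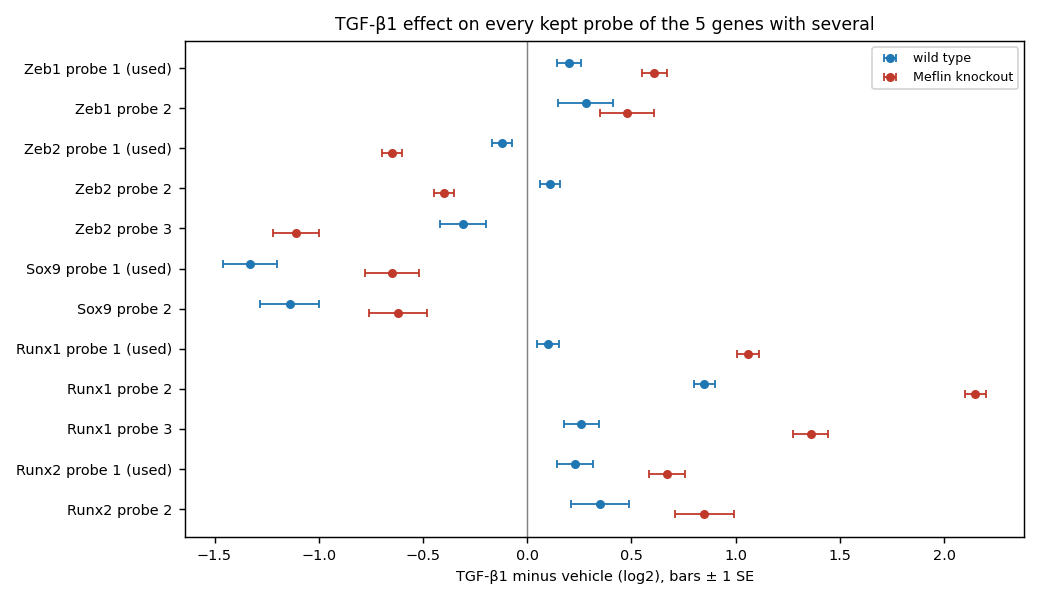
TGF-β1 effect (x axis, TGF-β1 minus vehicle, log2; bars ± 1 SE) on every probe kept for the 5 genes with several, in wild type (blue) and Meflin knockout (red) cells; "used" marks the brightest probe, whose values are the gene's. Runx1 probe 2 rises by 0.85 and 2.15, more than the probe used, and Zeb2 probe 2 lies at 0.11 in wild type cells.

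Comparing the genotypes directly, 2 of 10 genes differed with vehicle, Snai2 and Twist1, where 13.2% of all genes were called, 7.06% higher and 6.16% lower in the knockout. With TGF-β1 all 10 were called, 8 higher and Twist1 and Zeb2 lower in the knockout, where 70.2% of all genes were called, 39.7% higher and 30.5% lower. Scx was the 1 gene with at least a 2-fold difference, as 10.3% of all genes had. The other 8 genes differed by -0.19 (Runx2) to 0.13 (Scx) with vehicle, at adjusted p from 0.135 to 0.854. The median difference was 0.01 with vehicle (0.03 over all genes) and 0.35 with TGF-β1 (0.06 over all genes). These comparisons use the same arrays as the TGF-β1 comparisons above, so their values are not further evidence of the same differences. Arrays of the 2 groups did not overlap for 5 genes in the wild type TGF-β1 comparison (63.0% of all genes), 10 in the knockout one (77.2%), 2 between genotypes with vehicle (18.8%) and 9 with TGF-β1 (64.7%). Quantile normalization moved the median of all genes in the knockout TGF-β1 comparison from 0.10 to -0.01, and with it 48.8% of called genes were higher, against 56.5%. For the interaction the positive share of calls was 54.6%, and 43.9% with quantile normalization. The authors' value table gave 46.1% higher calls in the wild type comparison, against 60.2%, and 38.9% between genotypes with vehicle, against 53.4%, but it covers 5257 genes against 15394, so these shares are not over one gene set. None of the called values of the 10 genes changed sign with quantile normalization.

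The order of the 4 groups differed from gene to gene. From lowest to highest mean, Zeb1, Runx1 and Runx2 ran knockout vehicle, wild type vehicle, wild type TGF-β1, knockout TGF-β1. For Runx1 the first 3 are not separated, for Zeb1 the first pair is not, and for Runx2 every pair of neighbours overlaps. Twist2 and Scx ran wild type TGF-β1, wild type vehicle, knockout vehicle, knockout TGF-β1, with the vehicle groups overlapping in both. Zeb2 ran from knockout TGF-β1 up to knockout vehicle, with wild type TGF-β1 and wild type vehicle between them, and only its lowest group was apart from its neighbour. Sox9 ran wild type TGF-β1, knockout TGF-β1, knockout vehicle, wild type vehicle, where the vehicle groups overlap. Twist1 was lowest with knockout vehicle and highest with wild type TGF-β1, and Snai2 lowest with wild type TGF-β1 and highest with knockout vehicle. In both, the middle pair of groups overlaps. Snai1 ran wild type vehicle, knockout vehicle, wild type TGF-β1, knockout TGF-β1, and its first 3 groups overlap. Across the 16 arrays, which share the 4 groups, Zeb2 ran against Runx1 (Pearson r = -0.97) and Zeb1 (r = -0.94), and Snai2 against Twist1 (r = -0.89). Twist1 and Twist2 had r = 0.07. These coefficients largely restate the group means.

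For the 3 genes whose group means spanned at least 1 log2 unit, the genes of most similar profile over the 16 arrays were named. Runx1 was closest to Ptgs2, the inducible cyclooxygenase (Pearson r = 0.9938), and to Cd44, the hyaluronan receptor (r = 0.9914). Ptgs2 differed by 0.29 with TGF-β1 in wild type and by 2.81 in knockout cells, and Cd44 by 0.11 and 1.08. Scx was closest to Pgf, placental growth factor (r = 0.9826; -0.50 in wild type and 0.52 in knockout cells), and to the Wnt ligand Wnt5a (r = 0.9737; -0.40 and 0.79). Sox9 was closest to the lymphatic growth factor gene Vegfc (r = 0.9786; -0.69 and -0.33) and to the EGF family ligand gene Ereg (r = 0.9551; -1.89 and -1.05). The genes were picked as the most alike, so the coefficients are a description.

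The other genes of these pathways were followed as 7 lists. Called values of listed and marker genes that changed sign with quantile normalization or normexp numbered 3 of 94 in the wild type TGF-β1 comparison, 10 of 104 in the knockout one, 0 of 29 between genotypes with vehicle, 5 of 88 with TGF-β1 and 3 of 73 for the interaction. In the same order, quantile normalization lost 11, 12, 0, 9 and 3 of these calls, and normexp lost 2, 6, 3, 3 and 6. Of 16 dimerisation partners and co-repressors of these factors, 13 were tested, and TGF-β1 raised 6 and lowered 4 in wild type and raised 5 and lowered 5 in knockout cells. Their median difference was 0.17 and 0.09, against 0.08 and 0.10 over all genes. ID proteins bind helix-loop-helix partners and keep them off DNA. Id1 fell by 0.49 and 0.70, Id2 by 0.29 and 0.71 and Id4 by 0.63 and 1.03 in wild type and knockout cells. Id3 rose by 0.49 ± 0.044 in wild type (adjusted p = 1.45e-07) and fell by 0.47 ± 0.044 in knockout cells (adjusted p = 9.34e-08), with an interaction of -0.95 ± 0.062 (adjusted p = 7.49e-09). With quantile normalization Id3 read 0.30 and -0.80. Ctbp2, a co-repressor that ZEB proteins recruit, rose by 0.47 and by 1.17, 2.25-fold, with an interaction of 0.70 (adjusted p = 1.44e-08). The histone deacetylase gene Hdac1 rose by 0.34 and 0.73, or by 0.10 and 0.25 with quantile normalization. The E protein gene Tcf4 fell by 0.31 and 0.69, and its other 3 probes read -0.03, -0.14 and -0.44 in wild type and -0.39, -0.60 and -1.15 in knockout cells.

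Of 13 other transcription factors tied to mesenchymal transition, all were tested. TGF-β1 raised 7 and lowered 3 in wild type cells and raised 9 and lowered 3 in knockout cells, with medians of 0.19 and 0.63. The interaction was positive for 7 and negative for 4. The forkhead gene Foxc2 rose by 0.28 in wild type and 2.08 ± 0.048, 4.23-fold, in knockout cells, with an interaction of 1.80 ± 0.067 (adjusted p = 1.66e-11). The chromatin protein gene Hmga2 rose by 0.44 and 1.58, and its second probe by 0.36 and 1.41. The Krüppel-like factor gene Klf8 rose by 1.87 in knockout cells (adjusted p = 2.3e-09) and read 0.19 in wild type cells, with an interaction of 1.69 (adjusted p = 1.8e-06). The wild type value was called with quantile normalization (0.36) and with normexp (0.17), and normexp gave 0.81 for the knockout rise and 0.64 for the interaction. The homeobox gene Prrx1 rose by 0.99 and 0.75, and its second probe read 0.68 and 0.16. Tcf21, a helix-loop-helix factor of lung and heart mesenchyme, rose by 0.17 in wild type and fell by 0.89 in knockout cells, with an interaction of -1.06 (adjusted p = 3.6e-08). Its wild type rise was 0.11 and not called with normexp.

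Of 11 factors that oppose SNAIL and ZEB in epithelium 6 were tested, and the others did not clear the background filter. TGF-β1 raised 3 and lowered 1 in wild type and raised 2 and lowered 2 in knockout cells. The knockout falls include Grhl1, which was not well above background on any knockout TGF-β1 array and was at least 1.21-fold lower there. With normexp Grhl1 read 0.15 and was not called. The splicing factor gene Esrp2, known as a target of ZEB repression, rose by 2.26 ± 0.08 in wild type, 4.79-fold, and by 3.10 ± 0.08 in knockout cells, 8.57-fold (adjusted p = 3.62e-12 and 2.02e-14). Klf4 fell by 0.76 and 0.64, and its knockout value was -1.08 with quantile normalization. Of 20 cadherin, junction and filament genes 15 were tested, with 10 raised and 3 lowered in wild type and 9 raised and 4 lowered in knockout cells. Cdh1, which encodes E-cadherin and is the classic target of SNAIL and ZEB repression, rose by 0.98 ± 0.073 (0.63 with normexp) and 0.85 ± 0.073, and the keratin genes Krt8 by 0.72 and 0.77 and Krt18 by 0.78 and 0.94. Cdh2, N-cadherin, rose by 0.80 and 0.40 (0.18 with quantile normalization), with an interaction of -0.39 (adjusted p = 6.85e-05). Krt19 fell by 1.39 in wild type cells and read 0.12 in knockout cells, with an interaction of 1.51 ± 0.10 (adjusted p = 1.32e-08). The summed epithelial markers were also higher with TGF-β1, from 5892 to 6763 up to 9674 to 10450 in wild type and from 5554 to 5778 up to 9454 to 10390 in knockout cells, and the 3 members that rose were Cdh1, Krt8 and Krt18 themselves. The lung epithelial secretory genes of that list fell. Sftpc, of alveolar cells, fell by 4.80 in wild type cells and was at least 17.2-fold lower with TGF-β1 in knockout cells. It was well above background on only 1 wild type TGF-β1 array, so the size of the wild type fall is also uncertain. Scgb1a1, of club cells, was at least 3.14-fold and at least 1.93-fold lower. With normexp Sftpc read -2.43 and -2.19 and Scgb1a1 -0.42 and -0.11 in wild type and knockout cells, the last not called. Cdh5, of endothelium, fell by 0.85 and 1.62. The mesenchymal filament gene Vim rose by 0.29 and 0.59, but read -0.11 and -0.05 with quantile normalization.

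Among SOX partners and known cartilage targets of SOX9, 12 of 20 were tested. TGF-β1 raised 5 and lowered 4 in wild type and raised 6 and lowered 4 in knockout cells. Not all knockout rises held. A rise of 0.32 read -0.06 with quantile normalization and -1.52 on that gene's other probe. Another, of 0.69, read -0.42 with normexp and -1.31 on that gene's other probe. The list median was 0.17 in wild type, or 0.05 with the genes that have only a bound at that bound, and 0.30 in knockout cells. The rises in wild type cells include Matn3, a matrilin gene, which was not well above background in either wild type group. The fibrillar collagen gene Col11a1 rose by 2.38 ± 0.047, 5.22-fold, in wild type and 3.92 ± 0.047, 15.2-fold, in knockout cells, with an interaction of 1.54 (adjusted p = 8.51e-11). Acan, encoding the proteoglycan aggrecan, was not well above background on vehicle arrays and was at least 1.69-fold higher with TGF-β1 in wild type and at least 18.4-fold higher in knockout cells. With normexp Acan read 0.66 and 2.51, less than these bounds, which are 0.76 and 4.2 on the log2 scale. The neural and mesenchymal factor gene Sox11 rose by 2.24 and 4.81, and its second probe by 3.17 and 5.41, while normexp gave 0.93 and 2.92. Sox6, a cartilage partner of SOX9, fell by 1.04 and 1.27, and read -0.76 in knockout cells with normexp. Col2a1, the collagen gene of cartilage, rose by 0.24 in wild type and fell by 0.90 in knockout cells, with an interaction of -1.14 ± 0.11 (adjusted p = 4.13e-07). The wild type value was 0.12 and not called with quantile normalization.

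Of 21 RUNX partners and osteoblast genes 13 were tested, with 10 raised and 1 lowered in wild type and 8 raised and 4 lowered in knockout cells, at medians of 0.28 (0.25 with bounds) and 0.37. The late bone genes Sp7, Bglap and Ibsp did not clear the background filter in any group and were not tested. Runx3, the last member of the family, rose by 0.71 and 1.91, but its second probe read -0.29 and 0.28, and normexp gave 0.31 and 0.79. Col10a1, the collagen of hypertrophic cartilage and a known RUNX2 target, was at least 7.85-fold higher with TGF-β1 in knockout cells, where it was well above background on the 4 treated arrays, and was not well above background in either wild type group, although it is counted among the 10 raised there. Normexp gave 1.28 for its knockout rise, less than this bound, which is 2.97 on the log2 scale. Alpl, alkaline phosphatase, went the other way. It was at least 6.65-fold lower with TGF-β1 in knockout cells and read -0.32, not called, in wild type cells. With normexp the knockout value of Alpl was -1.1, a smaller fall than this bound, which is -2.73 on the log2 scale. Msx2 rose by 0.37 and 1.17, and its second probe by 1.35 and 3.15, while normexp gave 0.22 and 0.76. Mmp13, a collagenase gene and known RUNX2 target, rose by 1.06 and 0.57. The RUNX co-repressor gene Runx1t1 read -0.01 in wild type cells and fell by 0.92 in knockout cells, with an interaction of -0.91 (adjusted p = 3.09e-07).

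Of 14 tendon genes listed 12 were tested, with 2 raised and 7 lowered in wild type and 4 raised and 8 lowered in knockout cells, at medians of -0.50 and -0.67, against 0.08 and 0.10 over all genes. Over all genes 41.3% rose and 27.3% fell in wild type and 46.6% rose and 35.9% fell in knockout cells. Fmod, encoding the tendon proteoglycan fibromodulin, fell by 3.09 ± 0.057 in wild type, 8.50-fold, and fell by 4.06 ± 0.057 in knockout cells, 16.6-fold (adjusted p = 6.99e-15 and 4.06e-17). Mkx, the homeobox factor of tendon, read -0.29 in wild type cells, not called, and rose by 0.67 in knockout cells, with an interaction of 0.96 ± 0.18 (adjusted p = 0.00033), or 0.46 with normexp. Thbs2, a matricellular glycoprotein gene, fell by 0.11 in wild type (-0.21 with quantile normalization) and rose by 1.1 in knockout cells, with an interaction of 1.21 ± 0.057 (adjusted p = 1.98e-10). Egr1 went the other way, rising by 0.25 in wild type (0.10 with quantile normalization) and falling by 1.53 in knockout cells. Tnmd, the late tendon marker tenomodulin, did not clear the background filter in any group.

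**Figure D4:**
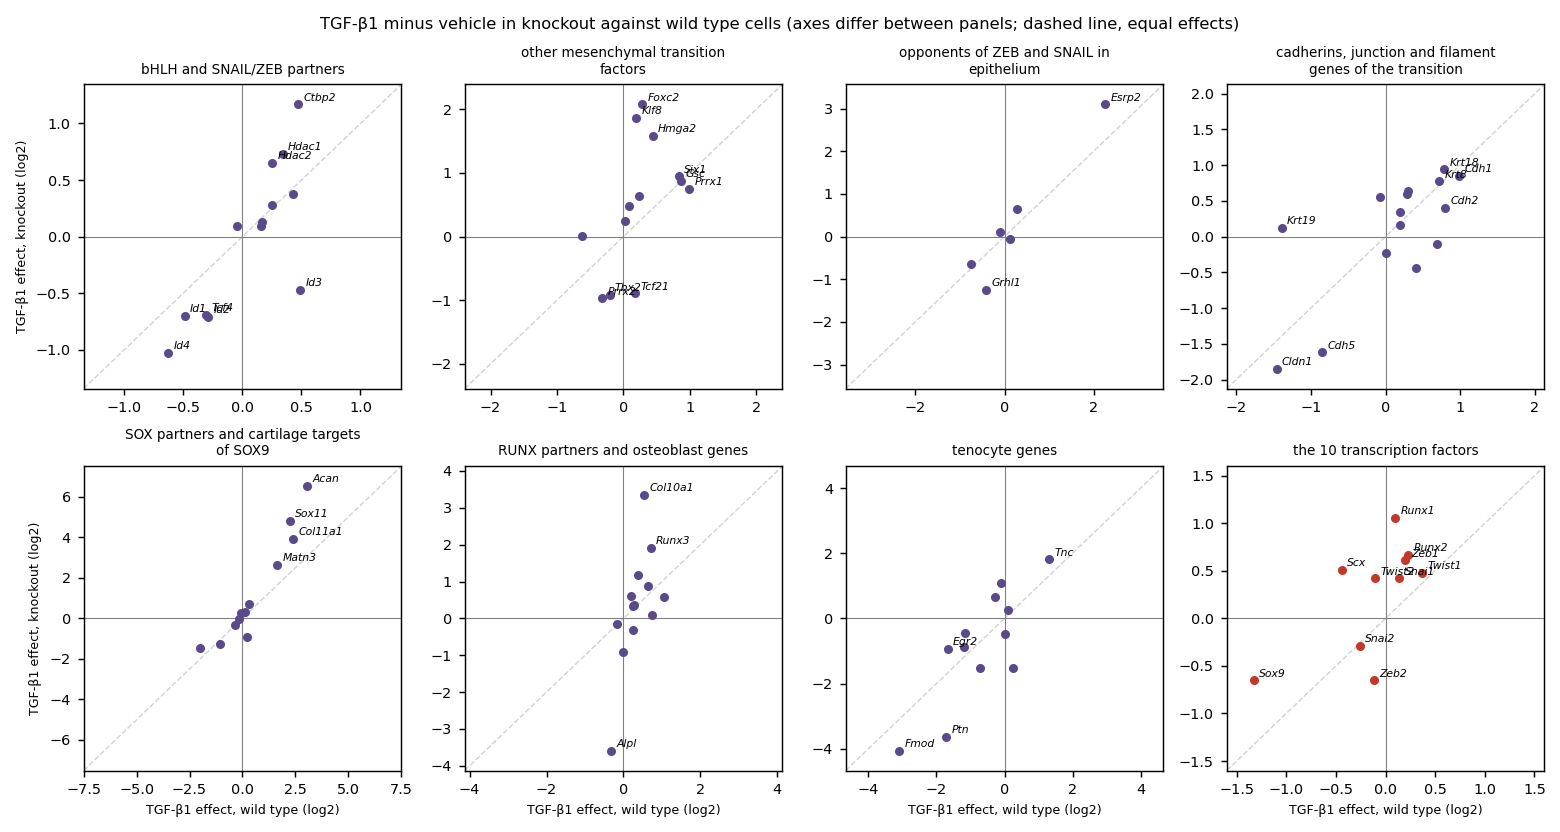
TGF-β1 effect in knockout (y axis, log2) against wild type cells (x axis, log2) for the tested genes of each related list and, last, for the 10 transcription factors; each point is a gene, the dashed line marks equal effects and axes differ between panels. Genes not above background in one group are drawn at their fitted values. Some, such as Acan and Col10a1 in knockout cells, are bounded in the text, and others, such as Matn3, Cldn1 and Comp, are not.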

How the data were processed

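RNA from 16 cultures was hybridised to one-colour Agilent mouse arrays. The deposited scanner files give spot intensities from Agilent Feature Extraction 11.0.1.1, background-subtracted per the file headers. A series value table on a log2 scale was also deposited by the authors; it was used as an alternative and holds 4 of the 10 genes. The authors' normalization, centring and baseline are not given in the sources used here; its column medians ran from 6.38 to 6.615. Outlier-flagged spots were dropped, replicate spots averaged per probe, and the 75th percentiles of log2 intensity aligned between arrays. A probe was kept when some group had it well above background on each of its 4 arrays, the brightest kept probe stood for its gene, and accessions were named through RefSeq (GRCm38.p6): 32994 of 56605 probes. limma 3.58.1 in R 4.3.3 was fitted across all groups with no block, with Benjamini-Hochberg adjustment over 15394 genes. Each slide held 2 arrays of every group.

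On simulated arrays with 50 changed genes per fold size in each comparison, 1.5-fold changes were recovered in 92% (wild type TGF-β1) and 80% (knockout TGF-β1) of cases, and 74% for the interaction. Changes of 1.25-fold were recovered in 58%, 68% and 38%, in the same order. Far fewer genes changed there than were called on the real arrays, so these rates do not carry over directly. The members and lists were chosen with earlier results of these data known. All 10 genes are named; listed genes at most as the 4 of smallest adjusted p in each direction per list and comparison; and, for genes spanning 1 log2 unit, the 2 genes of highest correlation. Alternatives were quantile normalization, normexp background correction with an offset of 50, 2 filters, the mean of probes, slide and replicate blocks, single slides, each array left out, the authors' table and, added after seeing the data, each other probe.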

Additional observations from a re-analysis of the deposited data

Results flagged for a closer look

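Among 40 sets of 4 arrays (10 genes in 4 groups), 2 held an array whose gap to its nearest neighbour, as a share of the whole range passed Dixon's 95% critical value for 4 values, and chance flags about 1 in 20. Both were wild type TGF-β1 array 1. For Twist2 it read 9.41, a gap of 0.23 and a share of 0.854, and for Zeb2 it read 11.53, a gap of 0.07 and a share of 0.844.

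The TGF-β1 effect differed between the genotypes for 8 of the 10 genes, by the interaction test of limma with Benjamini-Hochberg adjustment. Of all genes 58.3% were called by this test, 31.9% positive and 26.5% negative. The effect in knockout cells minus that in wild type cells was 0.28 for Snai1, 0.53 for Twist2, 0.41 for Zeb1 and 0.95 for Scx. It was 0.68 for Sox9, 0.97 for Runx1, 0.44 for Runx2 and -0.53 for Zeb2. A positive value is not always a larger response: Sox9 fell in both genotypes, and less in the knockout. Scx fell in wild type and rose in knockout cells. With quantile normalization the Snai1 value was 0.16 and not called.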

How the results depend on the processing

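Each of the 50 values (10 genes in 5 comparisons) was recomputed under every alternative. The side of the threshold held for 47 with quantile normalization, 46 with normexp, 48 with no filter, 50 with only genes well above background on all 16 arrays, 49 with the mean of probes, 38 within slide 1, 41 within slide 2 and 20 of 20 in the authors' table. In the wild type TGF-β1 comparison Zeb2 turned to 0.11, both with normexp and on its second probe; the cause was not tested. With vehicle, 2 genes differed between genotypes, but 1 with normexp, 1 with no filter, 0 within slide 1 and 1 within slide 2, and 1 to 2 with an array left out. With TGF-β1 the 10 genes fell to 6 within slide 1, and for the interaction the 8 fell to 5 there, on 2 arrays per group. With an array left out, 5 to 8 genes were called in wild type cells (7 with all arrays), 10 in knockout cells, 8 to 10 between genotypes with TGF-β1 and 8 for the interaction. With all arrays, 68.6%, 82.6%, 70.2% and 58.3% of all genes were called in these comparisons, in the same order. Over all 15394 genes, 2036 differed with vehicle, but 197 and 1048 within slides 1 and 2. Between genotypes with TGF-β1 10805 differed, but 8405 within slide 1, and 8978 had an interaction, but 5620 within slide 1.

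The slide as a block changed no call. Same-numbered arrays are not stated to share a mouse or day; their deviations correlated at -0.03 to 0.22 in 24 pairs, 8 of them over 0.1, and 13 of 16 arrays correlated best with their own number. The replicate block left the counts of called genes at 7, 10, 2, 10 and 8, changed no call among the 50 values, and gave 10788, 12847, 2292, 11065 and 9312 calls over all genes in the same order. Dim probes have only a bound, computed without normexp, and cross-probe levels cannot be compared.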
